A study of Mus musculus with 6 samples.

Results

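The 10 genes described here encode GTPases that interferon-gamma switches on in mouse cells. They are the guanylate-binding proteins Gbp2, Gbp3, Gbp4, Gbp6 and Gbp7 and the immunity-related GTPases Igtp, Irgm1, Irgm2, Iigp1 and Tgtp1. They were chosen by name, with earlier results of the comparison below in view, from the 35977 genes of a table of read counts, and all 10 have a row in it. The counts come from messenger RNA sequencing of bulk mouse liver. Mice of the first group had received AAV9-Tnnt2-Cre-miR122 (called Cre-miR122, replicates 1, 2 and 4), and mice of the second AAV9-Tnnt2-Cre (called Cre, replicates 10, 11 and 12), with 3 libraries in each group. Both agents are adeno-associated viruses of serotype 9, a gene delivery vector, with Cre recombinase under the promoter of Tnnt2, a gene of heart muscle. The first one also carries target sites for miR-122, the main microRNA of hepatocytes, and the study asked how these sites affect the liver. All mice received a vector, so the 6 libraries hold no liver without one. Strain, age, dose and time after injection are not given in the labels, nor whether each library is a separate animal, so the spread between libraries may be partly technical.

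Library totals lay between 20340994 and 20817837 counts. No library repeated another: counts of any pair of them gave a chi-square of 6.04 or more per degree of freedom, beyond counting error. Counts of the Cre transcript were 12, 16 and 10 in the Cre-miR122 libraries, against 61, 50 and 37 in the Cre libraries. Cre replicate 10 was the only library with Y-linked reads, 1676 counts of Ddx3y, while the other libraries had at most 1. Xist, expressed in females, had 5 counts there, against 15778 to 20130 with Cre-miR122 and 22413 and 17419 in Cre replicates 11 and 12. Sex and that library cannot be told apart, and the groups are not balanced for sex. Only the fit without Cre replicate 10 compares libraries alike in these transcripts. All 8 hepatocyte markers were present in every library, summing to 145000 to 146500 CPM (counts scaled to a common library size) in the Cre-miR122 libraries and 126100 to 151200 CPM in the Cre libraries.

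Interferon-gamma is a cytokine of T cells and natural killer cells. It binds a receptor made of Ifngr1 and Ifngr2, which signals through the kinases Jak1 and Jak2. The response reaches promoters at GAS elements and, through Irf1, at the ISRE, the element that type I interferon uses as well. The guanylate-binding proteins and immunity-related GTPases induced in this way coat and break the vacuoles in which bacteria and parasites hide. Within the second family, Igtp, Irgm1 and Irgm2 have a methionine in place of a lysine in the nucleotide-binding loop (GMS proteins). They sit on the cell's own membranes and keep the GKS proteins, such as Iigp1 and Tgtp1, inactive there. In liver, hepatocytes as well as macrophages and endothelial cells can make these GTPases.

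The promoters hold matches to these elements. RefSeq promoters of build GRCm38.p6, from 250 bases before to 50 after the annotated start, were used for 7 of the 10 genes. The motifs searched, on both strands, were the GAS as TTCNNNGAA and the core of the ISRE as GAAANNGAA. In all, 8.30% and 8.56% of all 32851 promoters of that length hold a match, and 15.8% hold either. Each of the 7 promoters held an ISRE core match, and 4 also held a GAS match (Gbp7, Igtp, Irgm2 and Tgtp1). No GAS match overlapped an ISRE core match. The stretches with the matches are printed from 5′ to 3′ on the gene's strand, with the matched bases in capitals and 15 bases on each side.

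In the 3 genes on chromosome 3, the ISRE core stood in reverse and close to the start site. These stretches lie at chr3:142620590-142620628 for Gbp2, chr3:142559985-142560029 for Gbp3 and chr3:142530215-142530307 for Gbp7, all on the plus strand.
Gbp2: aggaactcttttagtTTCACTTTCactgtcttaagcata
Gbp3: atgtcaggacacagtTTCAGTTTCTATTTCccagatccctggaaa
Gbp7: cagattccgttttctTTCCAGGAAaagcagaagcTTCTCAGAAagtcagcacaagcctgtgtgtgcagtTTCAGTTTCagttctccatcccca
The first base of the reverse ISRE core was 58 bases before the start in Gbp2, 44 in Gbp3 and 52 in Gbp7. Gbp3 has a second core match 6 bases on, which shares bases with the first, and a second annotated start with no match.

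On chromosome 11, the immunity-related GTPases Igtp, Irgm2 and Tgtp1 share a compact arrangement in which a GAS is followed by a forward ISRE core. The stretches lie at chr11:58199496-58199545 for Igtp and chr11:58214887-58214936 for Irgm2 on the plus strand, and at chr11:48992300-48992349 for Tgtp1 and chr11:48871421-48871465 for Irgm1 on the minus strand.
Igtp: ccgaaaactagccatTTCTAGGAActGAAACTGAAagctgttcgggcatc
Irgm2: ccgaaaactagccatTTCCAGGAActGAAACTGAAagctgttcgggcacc
Tgtp1: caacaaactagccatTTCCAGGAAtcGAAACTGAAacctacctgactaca
Irgm1: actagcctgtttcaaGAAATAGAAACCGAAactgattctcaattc
In Igtp, Irgm2 and Tgtp1 the ISRE core begins 11 bases after the GAS begins. This arrangement was looked for in all promoters after it had been seen here, and 8 of 27025 genes hold it. Of these, 3 are the genes just named and 2 are their relatives Tgtp2 and Gm12185. The rest of the 8 are Adar, an interferon-induced RNA-editing enzyme, Olfr382 and LOC115488470. Irgm2 and Tgtp1 share a run of 20 identical bases that ends with the GAS. Igtp and Irgm2, neighbours on the chromosome, share a run of 61 identical bases after the ISRE core. Irgm1 lacks a GAS match in this window and has a pair of ISRE core matches 6 bases apart.

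**Figure D1:**
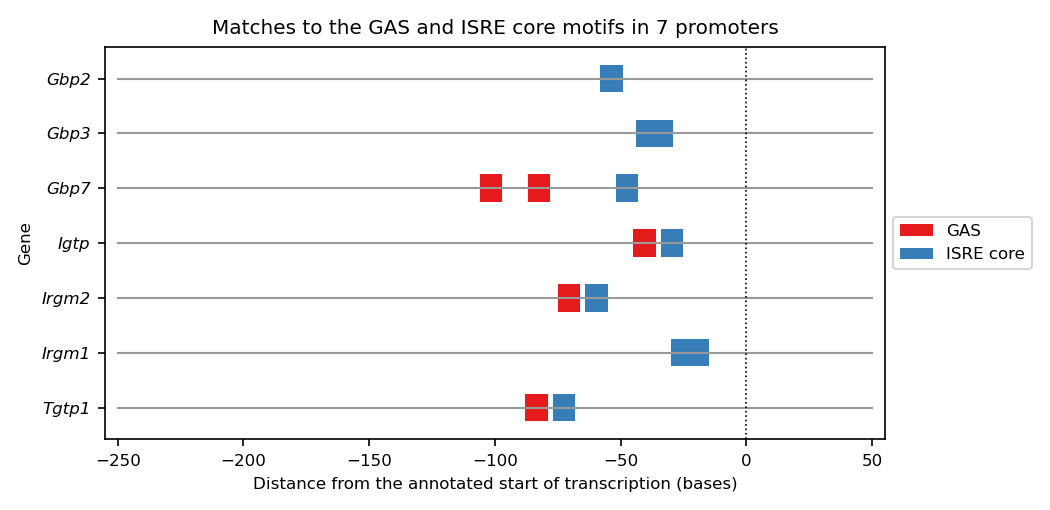
Positions of GAS (red) and ISRE core (blue) matches in 7 promoters, in bases from the annotated start of transcription (dotted line). In Igtp, Irgm2 and Tgtp1 a GAS stands directly before an ISRE core, at a spacing of 11 bases, while Gbp2, Gbp3 and Irgm1 have ISRE core matches alone.

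All 10 genes had a lower mean with Cre-miR122 than with Cre, and for 9 of them 1 library, Cre replicate 11, stood above all the others. Values below are CPM scaled with the TMM method, which corrects library totals for their composition, and log2 fold changes are Cre-miR122 minus Cre from the edgeR quasi-likelihood fit across all genes. As the genes were chosen with this contrast in view, their differences are described and not tested. In bulk tissue, fewer cells of a type and less RNA per cell cannot be told apart.

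Gbp2, Gbp3 and Gbp7 lie on the plus strand of chromosome 3 (GRCm38 142620663 to 142638008, 142560016 to 142573213 and 142530336 to 142550151), and Gbp4 and Gbp6 on the minus strand of chromosome 5 (105115767 to 105139586 and 105270702 to 105295871). Gbp2, whose protein carries a lipid anchor and coats parasite vacuoles, had 4.83, 6.81 and 6.33 CPM in the Cre-miR122 libraries, against 6.83, 10.3 and 9.09 CPM in the Cre libraries. The groups did not overlap, but Cre-miR122 replicate 2 and Cre replicate 10 lay side by side. The log2 fold change of Gbp2 was -0.55 (SE 0.19). Gbp4, reported to restrain the transcription factor Irf7, had 8.87, 8.89 and 6.67 CPM with Cre-miR122, against 9.30, 15.8 and 11.9 CPM with Cre. The ranges of Gbp4 were also apart, again with Cre replicate 10 next to the Cre-miR122 libraries, and the log2 fold change was -0.60 (SE 0.20), or -0.38 without Cre replicate 11.

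Gbp3, which gathers with other family members at parasite vacuoles, had 12.2, 11.6 and 8.36 CPM with Cre-miR122, against 11.3, 19.8 and 13.4 CPM with Cre. Here the groups overlapped, with Cre replicate 10 below 2 of the Cre-miR122 libraries (log2 fold change -0.47, SE 0.21, or -0.21 without Cre replicate 11). Gbp7, which brings oxidase subunits to vacuoles, was the most even of the 5, at 22.0, 20.1 and 18.6 CPM with Cre-miR122, against 20.7, 26.6 and 24.3 CPM with Cre (log2 fold change -0.24, SE 0.11, or -0.16 without Cre replicate 11). Its groups overlapped through the same library. Exons of Gbp2 and Gbp3 overlap those of Mir6381 (0 counts) and Gm40158 (a mean of 7.5 counts) on the other strand.

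Gbp6 ordered the libraries in another way. It had 8.57, 16.8 and 12.9 CPM with Cre-miR122, against 12.1, 18.4 and 19.2 CPM with Cre (log2 fold change -0.38, SE 0.24). Cre-miR122 replicate 2 lay near the 2 high Cre libraries, and Cre-miR122 replicate 1 was the lowest. Without Cre-miR122 replicate 1 the log2 fold change of Gbp6 was -0.16, and without Cre-miR122 replicate 2 it was -0.63. Of the 100-base stretches of Gbp6 transcripts, 37.3% also occur in other genes of the table, mainly Gbp10, so its count may hold reads of that neighbour.

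Igtp and Irgm2 lie on the plus strand of chromosome 11 (58199556 to 58207592 and 58214977 to 58222783), and Irgm1 and Tgtp1 on its minus strand (48865245 to 48871454 and 48985329 to 48992246). Among the GMS proteins, Igtp, which together with Irgm1 protects the cell's own organelles, was nearly flat within Cre-miR122, at 34.3, 31.3 and 31.0 CPM, against 31.1, 82.8 and 55.7 CPM with Cre. Cre replicate 10 was level with the Cre-miR122 libraries, while Cre replicates 11 and 12 stood well above them. Igtp had the lowest log2 fold change of the 10 genes, -0.81 (SE 0.28), and -0.43 without Cre replicate 11. Irgm1, which is also needed for the survival of activated blood cells, had 54.8, 51.8 and 51.2 CPM with Cre-miR122, against 51.0, 74.8 and 59.4 CPM with Cre. Its pattern was similar with a smaller range, Cre replicate 10 again lying beside the Cre-miR122 libraries, and the log2 fold change was -0.23 (SE 0.13). It was -0.070 without Cre replicate 11 and -0.35 without Cre replicate 10. Irgm2, a protein of the Golgi, had 47.8, 72.5 and 51.7 CPM with Cre-miR122, against 47.8, 91.6 and 87.3 CPM with Cre (log2 fold change -0.40, SE 0.24). As for Gbp6, Cre-miR122 replicate 2 was the highest of its group, and without it the log2 fold change of Irgm2 was -0.60. Without Cre replicate 11 it was -0.24, and without Cre replicate 10 it was -0.64.

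The GKS proteins differed widely in abundance. Iigp1, the best studied effector of the family, on chromosome 18, had 346, 355 and 323 CPM with Cre-miR122, against 315, 417 and 373 CPM with Cre. Its groups overlapped, its log2 fold change was -0.11 (SE 0.11), and its highest library was only 1.32-fold above its lowest. Leaving out Cre-miR122 replicate 4 gave -0.071 for Iigp1, leaving out Cre replicate 10 gave -0.21, and leaving out Cre replicate 11 gave -0.013. Tgtp1, an effector that attacks the same vacuoles, had 10.3, 6.62 and 6.09 CPM with Cre-miR122, against 5.05, 19.7 and 11.99 CPM with Cre (log2 fold change -0.68, SE 0.40). Without Cre replicate 11 it was -0.16, and without Cre replicate 10 it was -1.05. The lowest and the highest value of Tgtp1 both lay in the Cre group, at 102 counts in replicate 10 and 422 counts in replicate 11. Their 95% Poisson intervals, which cover counting error only, were 4.12 to 6.13 CPM and 17.8 to 21.6 CPM. Of the stretches of Tgtp1 transcripts, 73.1% occur in another gene too, nearly all in its near-copy Tgtp2, so reads may have been split between the pair or left out.

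**Figure D2:**
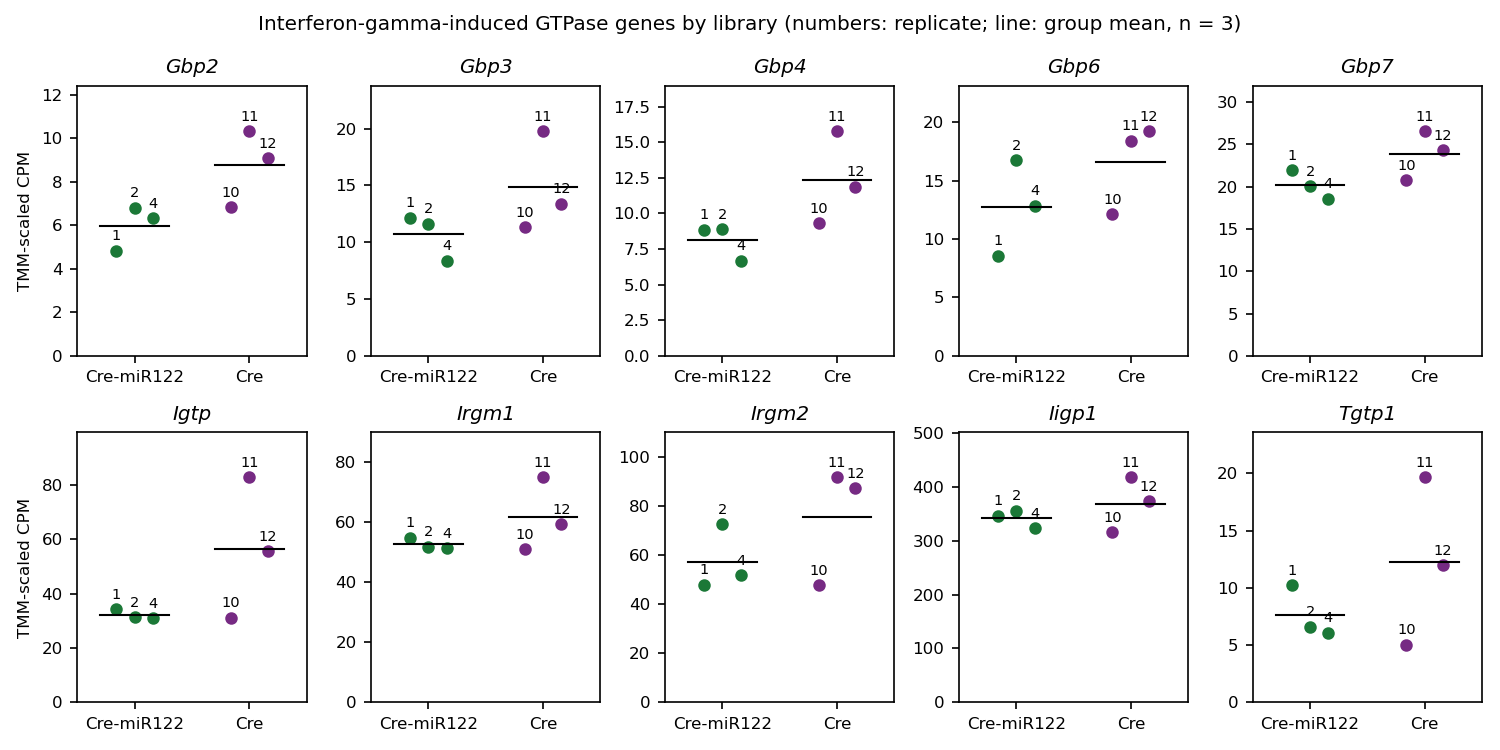
TMM-scaled CPM of the 10 GTPase genes in each library, with Cre-miR122 (green) at left and Cre (purple) at right. Numbers name the replicate and lines show the mean of 3 libraries; Cre replicate 11 was highest for 9 of the genes, and Cre replicate 10 lay within or below the Cre-miR122 range for 8 of them.

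Set together, all 10 genes had a log2 fold change below 0, from -0.81 to -0.11, with a median of -0.43, while the median over the 14374 genes that passed the filter on low counts was -0.0029. All 10 genes passed that filter. None was called by edgeR at an adjusted p under 0.05, nor was any other gene (0%), and the lowest adjusted p was 0.816. With an unadjusted p under 0.05, Gbp2, Gbp4 and Igtp were lower, 3 of 10, where 2.65% of all genes were. The groups did not overlap for Gbp2 and Gbp4, 2 of 10, both lower with Cre-miR122, where 5.45% of all genes were lower in this way. These counts describe genes that were picked with this contrast in view, and nothing is read from them. DESeq2 called 3 genes in the whole table and limma-voom 0, with none of the GTPases among them.

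The size of the difference depended on Cre replicates 11 and 10. Cre replicate 11 was the highest library for 9 of the 10 genes, the exception being Gbp6 with Cre replicate 12. Without Cre replicate 11 the median over the 10 genes was -0.22, and Gbp2 and Gbp6, which changed least in proportion, lay at -0.41 and -0.30. Cre replicate 10, the library with Y-linked reads, had the opposite effect and was the lowest of the 6 for Irgm1, Irgm2, Iigp1 and Tgtp1. Without it, among libraries with at most 1 count of Ddx3y, the median over the 10 genes was -0.64. All 10 genes stayed below 0 whichever of the 6 libraries was left out. Cre replicate 10, with the fewest reads of the 10 GTPases in its group (10315 counts, against 16677 in replicate 11 and 13313 in replicate 12), had the most of the Cre transcript (61 counts, against 50 and 37). Cre replicate 11, however, had more of both than Cre replicate 12, and a relation between them was not tested.

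**Figure D3:**
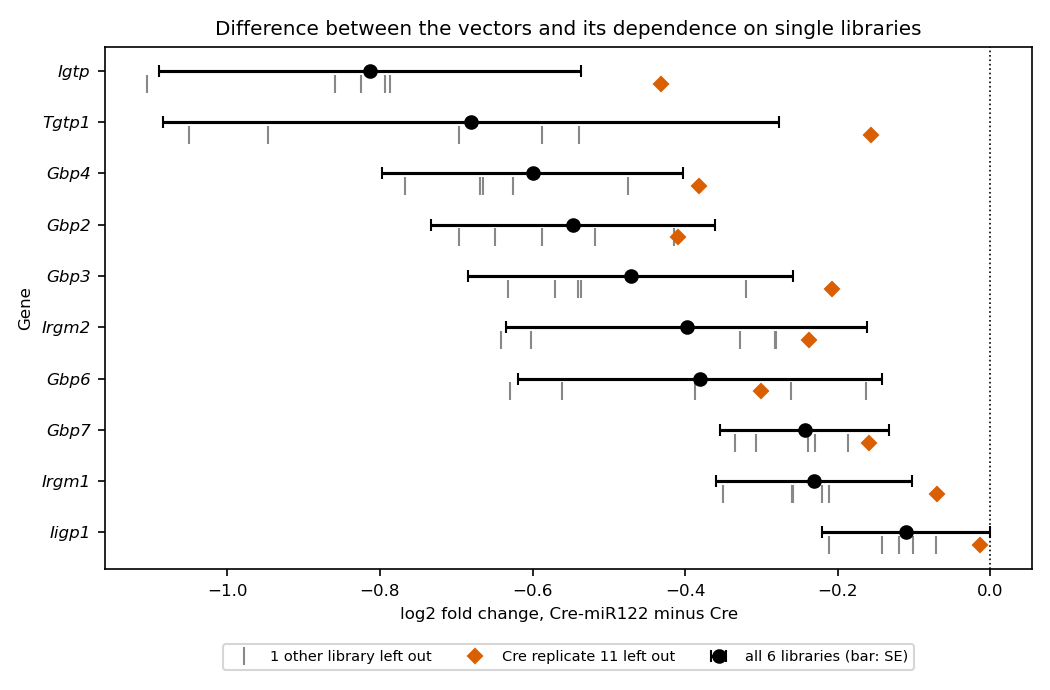
Log2 fold change of each gene, Cre-miR122 minus Cre, from all 6 libraries (black, bar = SE) and with 1 library left out (grey ticks, or orange diamonds for Cre replicate 11). Without Cre replicate 11 most genes moved toward 0, Iigp1 to -0.013, and none crossed it.

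Levels between the genes were compared per length, as TPM (counts per kilobase of gene, scaled to a common sum). Iigp1 stood far above the rest, at 204 ± 9.90 TPM with Cre-miR122 and 219 ± 36.6 TPM with Cre (SD, n = 3 each). Next came the 3 GMS proteins. Of these, Irgm1 had 41.9 ± 0.696 TPM with Cre-miR122 and 48.8 ± 11.2 TPM with Cre, Igtp had 32.9 ± 1.18 TPM with Cre-miR122 and 57.7 ± 28.1 TPM with Cre, and Irgm2 had 33.9 ± 8.22 TPM with Cre-miR122 and 44.2 ± 14.9 TPM with Cre. Their ranges overlapped, so their order within the 3 is not resolved. The remaining 6 genes had means over all 6 libraries between 4.03 TPM for Gbp4 and 8.24 TPM for Gbp3. Neighbours in this order had overlapping ranges, while those of Gbp4, 2.67 to 6.40 TPM, and Gbp7, 6.92 to 10.04 TPM, did not overlap. By CPM, which ignores length, 9 of the 10 genes change rank, and Iigp1 alone keeps its place.

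Among the 10 genes, the members of the families differed widely in summed abundance. Relatives outside the 10 were not counted, such as Gbp11, with a mean of 23.6 TPM over all libraries, and Gm4951, with 62.6 TPM. The 5 immunity-related GTPases summed to 314, 337 and 305 TPM with Cre-miR122, against 284, 474.3 and 377.1 TPM with Cre. The 5 guanylate-binding proteins summed to 26.6, 31.6 and 26.0 TPM with Cre-miR122, against 28.6, 46.5 and 37.1 TPM with Cre. Iigp1 alone gave 64.4%, 63.8% and 64.3% of the immunity-related GTPase sum with Cre-miR122, against 64.4%, 54.0% and 57.6% with Cre.

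Among the 10 genes, the balance between GKS and GMS transcripts also differed between libraries. Its GKS side was nearly all Iigp1, at 17.2 to 50.8 times the TPM of Tgtp1. Immunity-related GTPases outside the 10, such as Gm4951, were not counted. The TPM ratio of Iigp1 plus Tgtp1 to Igtp, Irgm1 and Irgm2 together was 2.01, 1.88 and 1.92 in the Cre-miR122 libraries, against 1.91, 1.33 and 1.49 in the Cre libraries. Cre replicate 10 lay with the Cre-miR122 libraries, and the 2 libraries with the most GTPase transcripts had the lowest ratios. The genes thus differed in how far they ranged: the highest library exceeded the lowest by 1.32-fold for Iigp1, 1.43-fold for Gbp7 and 1.47-fold for Irgm1, but by 2.67-fold for Igtp and 3.89-fold for Tgtp1, with the others between 1.92-fold and 2.37-fold.

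Relatives of these genes outside the 10 had log2 fold changes on the same side of 0. A list of 25 other GTPases, from the same families and the neighbouring Gvin and Mx families, had 24 genes in the table, and 18 passed the filter. All 18 lay below 0, from -1.47 to -0.0098, with a median of -0.39. edgeR called 0 of them at an adjusted p under 0.05, and at an unadjusted p under 0.05 there were 6 lower and 0 higher, where 2.65% of all genes were lower and 2.76% higher. DESeq2 and limma-voom called 0 of them as well. The 6 were Gbp2b, Gbp8, Tgtp2, Gm12250, Ifi47 and Mx1. Of the 100-base transcript stretches of Tgtp1, 70.3% occur in Tgtp2, and of those of Gbp6, 36.3% occur in Gbp10. Counts of such relatives may thus not be separate from those of the 10 GTPases. The median of the 18 was -0.64 when Cre-miR122 replicate 2 was left out and -0.25 when Cre replicate 11 was.

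Gbp2b, the close relative of Gbp2 on chromosome 3, had 8, 16 and 14 counts with Cre-miR122, against 16, 64 and 27 counts with Cre (log2 fold change -1.47, SE 0.49). Gbp8 had 7.67, 9.47 and 10.01 CPM with Cre-miR122, against 12.6, 18.02 and 13.1 CPM with Cre, so its groups did not overlap (log2 fold change -0.69, SE 0.16). Tgtp2 behaved alike at a lower level, at 1.10, 1.546 and 1.499 CPM with Cre-miR122, against 1.88, 2.794 and 2.698 CPM with Cre (log2 fold change -0.83, SE 0.24). For these 3 genes Cre replicate 10 lay above the highest Cre-miR122 library in CPM. For Gbp2b the 2 libraries tied at 16 counts and were apart only through scaling (0.792 against 0.773 CPM), well within counting error. Gbp5, at -0.40 (SE 0.21), was the fourth gene of the 18 whose groups did not overlap in CPM, counting Gbp2b with its tie. All 4 were lower with Cre-miR122, where 5.45% of all genes were lower without overlap. Cre-miR122 replicate 1 was the lowest library for 10 of the 18, but for 2 of the 10 GTPases.

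Gm12250, which encodes the effector Irgb10, had a log2 fold change of -0.80 (SE 0.33), Mx1, an antiviral GTPase of the type I interferon response, one of -0.70 (SE 0.24), and Ifi47, which encodes Irgd, one of -0.50 (SE 0.19). Among the others were Gbp9 at -0.26 (SE 0.17), Gbp10 at -0.61 (SE 0.39), Gbp11 at -0.063 (SE 0.68), Mx2 at -0.15 (SE 0.19) and F830016B08Rik at -0.21 (SE 0.36). The very large GTPases Gvin1, Gm4070, Gm1966 and Gm8995 lay at -0.71 (SE 0.35), -0.15 (SE 0.41), -0.33 (SE 0.23) and -0.37 (SE 0.21). Gm4951, an immunity-related GTPase and the most abundant of the 18 per length, was even across libraries, at 52.9 to 67.6 TPM with Cre-miR122 and 58.0 to 68.1 TPM with Cre (log2 fold change -0.052, SE 0.10), and Gm5431 lay at -0.0098 (SE 0.23). The most abundant gene was thus also the most even, both among the 10 and among the 18. Too few reads for a test were found for Irgc1, at 0 in every library, Gm12185, Gm4841, 9930111J21Rik1, 9930111J21Rik2 and Gm17757.

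**Figure D4:**
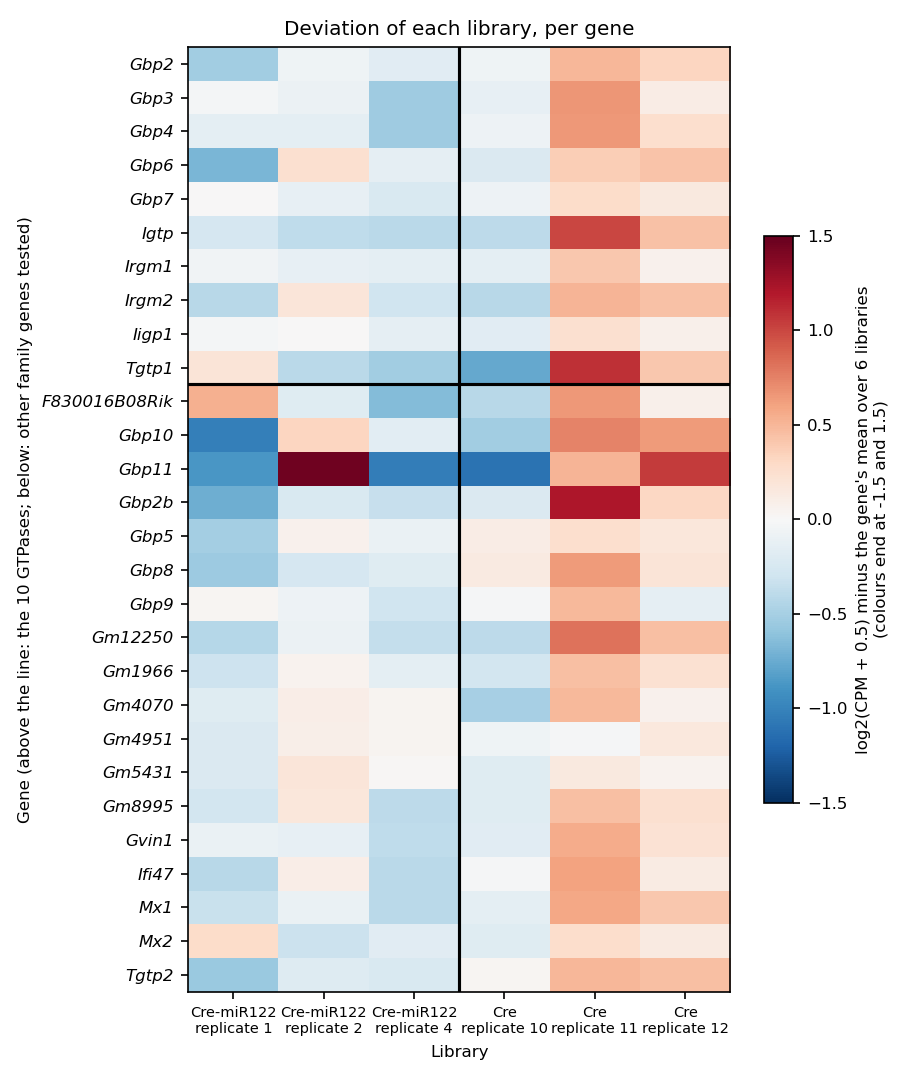
Deviation of each library from the gene's mean over the 6 libraries, as log2(CPM + 0.5), for the 10 GTPases (above the line) and the 18 related genes that were tested (below it), with Cre-miR122 libraries left of the vertical line and Cre libraries right of it. Cre replicate 11 was the highest library for 9 of the 10 genes and for 14 of the 18, while Cre replicate 10 was mostly close to the Cre-miR122 libraries.

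The pathway upstream of the GTPases was weakly expressed at its ligand, and the group means of its receptor chains were close. Ifng, the cytokine itself, had 2, 0 and 3 counts with Cre-miR122, against 0, 1 and 2 counts with Cre, too few for a test. Ifngr1, the chain that binds it, averaged 54.8 ± 8.04 CPM with Cre-miR122 and 59.6 ± 8.34 CPM with Cre (log2 fold change -0.12, SE 0.13). Ifngr2, the signalling chain, averaged 20.7 ± 0.809 CPM with Cre-miR122 and 18.9 ± 2.83 CPM with Cre (0.13, SE 0.12). In Cre replicate 11 Ifngr1 was at its highest, 67.95 CPM, and Ifngr2 at its lowest, 15.69 CPM. The kinases Jak1 (0.035, SE 0.085) and Jak2 (0.0010, SE 0.095) were close to 0.

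Irf1, a transcription factor induced by interferon-gamma, averaged 33.0 ± 1.78 CPM with Cre-miR122 and 37.2 ± 4.21 CPM with Cre (-0.17, SE 0.10). Socs1, the main brake of the pathway, had 9, 8 and 5 counts with Cre-miR122, against 6, 12 and 9 counts with Cre, and was not tested.

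Of the 56 listed pathway genes outside the GTPase families, 51 passed the filter. Of these, 13 lay above 0 and 38 below, with a median of -0.15. None was called at an adjusted p under 0.05 by edgeR, DESeq2 or limma-voom. At an unadjusted p under 0.05 edgeR gave 8 lower and 1 higher (Stat3), where 2.65% of all genes were lower and 2.76% higher. The groups did not overlap for 6 lower genes and 4 higher ones, where 5.45% and 5.69% of all genes did not. Without Cre replicate 11 the median was -0.061.

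By role, all 13 antigen presentation genes lay below 0, where 7278 of all 14374 genes did. Their median was -0.22, and 2 of them had an unadjusted p under 0.05. Cre replicate 11 was the highest library for all 13 but Tap2 and Tapbp. The lowest library was Cre replicate 10 for Nlrc5, Psmb8 and H2-K1, and a Cre-miR122 library for the others. The 13 include the immunoproteasome subunits Psmb8 (-0.24, SE 0.17) and Psmb9 (-0.30, SE 0.16) and the peptide transporter subunit Tap1 (-0.29, SE 0.13). They also include the transactivators of MHC class II, Ciita (-0.47, SE 0.34), and class I, Nlrc5 (-0.22, SE 0.19). Of the 7 tested secreted or surface targets, 6 lay below 0, with a median of -0.32. The T cell attractant Cxcl10 had 1.89, 2.90 and 2.85 CPM with Cre-miR122, against 3.46, 4.28 and 4.597 CPM with Cre, with no overlap (log2 fold change -0.69, SE 0.21). Its relative Cxcl9 was less even within groups (-0.32, SE 0.26), and the checkpoint ligand Cd274 lay at 0.12 (SE 0.24).

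Of the 8 tested cytosolic targets 6 lay below 0 (median -0.18), and of 10 signalling genes 6 did (median -0.17). Of the 5 tested brakes 3 lay below 0 (median -0.089). The autophagy factors, which are needed to place these GTPases on vacuoles, were evenly split, with 3 of 6 below 0 and a median of 0.029. Medians were lowest for the secreted and antigen presentation targets, and differences between these lists were not tested.

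Marker lists of the cells that make or answer interferon-gamma were measured in the same libraries. Markers of natural killer and innate lymphoid cells, 8 of 10 lower in the mean with Cre-miR122 and 2 with a 0 in some library, summed to 10.51 to 10.97 CPM with Cre-miR122 and 9.40 to 16.7 CPM with Cre. Their lowest library was Cre replicate 10 and their highest Cre replicate 11, the libraries that bounded Tgtp1 and Iigp1. In Cre replicate 11, Gzmb gave 5.36 CPM and Gzma 4.19 CPM of the sum. Klrb1c, Klrk1 and Nkg7 were highest there too, while Ncr1, Eomes, Tbx21, Prf1 and Klra8 were highest in other libraries. T cell markers, 6 of 9 lower, summed to 7.27 to 8.12 CPM with Cre-miR122 and 8.14 to 9.69 CPM with Cre. These sums are small, and the groups were only just apart.

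Kupffer cell and macrophage markers, 8 of 10 lower with Cre-miR122, summed to 487 to 633 CPM with Cre-miR122 and 584 to 707 CPM with Cre, and dendritic cell markers, 7 of 8 lower, to 18.2 to 23.3 CPM with Cre-miR122 and 21.6 to 25.9 CPM with Cre. Both were highest in Cre replicate 11. B cell markers, 6 of 6 lower, summed to 14.7 to 20.7 CPM with Cre-miR122 and 24.7 to 32.5 CPM with Cre, and neutrophil markers, 6 of 7 lower and 1 with a 0 in some library, to 8.02 to 9.52 CPM with Cre-miR122 and 10.7 to 13.5 CPM with Cre. The groups did not overlap for either of these lists. Sinusoidal endothelial markers, 5 of 7 lower, summed to 292 to 363 CPM with Cre-miR122 and 290 to 367 CPM with Cre, and were highest in Cre replicate 10.

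No marker on these lists was at 0 in all 6 libraries. Hepatocyte markers, 4 of 8 lower with Cre-miR122, had their lowest sum in Cre replicate 11, at 126100 CPM, of which Alb gave 93310 CPM. Alb, Cps1 and Ass1 were lowest in that library, while Apoa1 and Serpina1c were highest in it. All the immune lists had their highest library in common with most of the GTPases, and their part in the GTPase values was not tested. The median deviation of the 10 genes, in log2 units from the mean over the libraries, was -0.097, -0.10 and -0.27 in the Cre-miR122 libraries, against -0.16, 0.51 and 0.29 in the Cre libraries. For the natural killer list it was -0.050, -0.12 and -0.064 in the Cre-miR122 libraries, against -0.27, 0.34 and 0.028 in the Cre libraries. Cre replicate 11 was also highest for the B cell (0.42), macrophage (0.28), neutrophil (0.23), dendritic (0.19) and T cell (0.12) lists. The immunity-related GTPases set Cre replicate 10 lower, at -0.39, than the guanylate-binding proteins did, at -0.082.

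**Figure D5:**
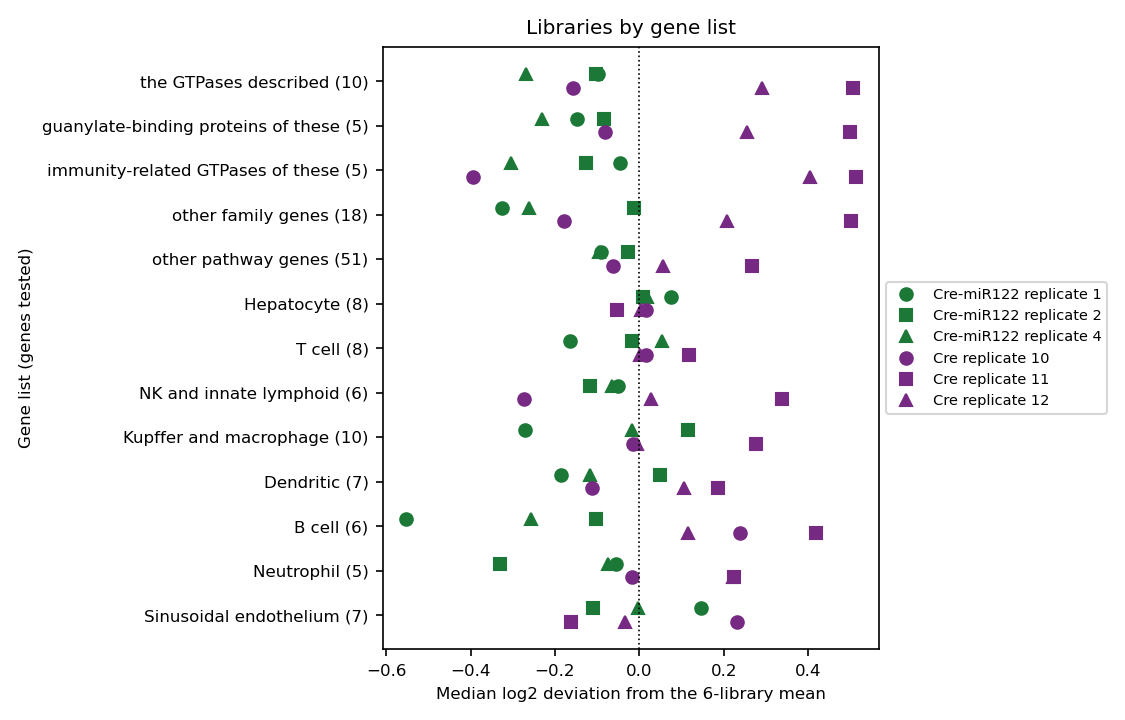
Median log2 deviation of each library from the mean over the 6 libraries, for the GTPases, related genes, pathway genes and cell type marker lists (genes tested in brackets), with Cre-miR122 in green and Cre in purple. Cre replicate 11 (purple square) was highest for the GTPases at 0.51 and for every immune list, among them B cells at 0.42 and natural killer cells at 0.34. Cre replicate 10 (purple circle) was near or below the Cre-miR122 libraries for the GTPases and the natural killer list. It lay above them for the B cell and neutrophil lists.

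The genes whose library pattern was closest to the median of the 10 GTPases were ranked by the mean absolute difference of their log2 deviations over the 6 libraries, among tested genes with a mean of at least 1 CPM. The closest was Apol9b, an interferon-induced apolipoprotein L gene, at 0.0313 log2 units, followed by 2410006H16Rik at 0.0470, the corepressor Tle2 at 0.0494, and Irf9, a transcription factor of the type I interferon response, at 0.0603. Next were Slc28a2, a nucleoside transporter, at 0.0617, the glycosyltransferase Gcnt1 at 0.0642, the sulfotransferase Chst3 at 0.0674, and Ddx60, an interferon-induced helicase, at 0.0687. None lies on the chromosomes of the guanylate-binding proteins, and 2410006H16Rik alone shares chromosome 11 with some of the 10. In Irf9 the libraries had 24.6, 26.3 and 22.1 CPM with Cre-miR122, against 22.0, 35.6 and 33.4 CPM with Cre (log2 fold change -0.32, SE 0.16), again with Cre replicate 10 beside the Cre-miR122 libraries.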

How the data were processed

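Messenger RNA of 6 mouse liver libraries was compared, 3 libraries of AAV9-Tnnt2-Cre-miR122 and 3 of AAV9-Tnnt2-Cre, grouped by sample title. The authors deposited whole-number read counts per gene with gene coordinates and lengths, made with STAR 2.7.9a and featureCounts 2.0.1 on GRCm38 (mm10), per the submitters' processing notes. Settings for strand and multimapping: not given in the sources used here. Counts of near-identical and antisense genes are therefore uncertain. Another 5 columns of per-sample values matched no sample and were not used.

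Counts were scaled with TMM, filtered with filterByExpr (14374 of 35977 genes kept) and fitted with the edgeR 4.0.16 quasi-likelihood test in R 4.3.3, two-sided, with Benjamini-Hochberg adjustment over all genes and a threshold of 0.05. Standard errors were derived from the F statistic. TPM used the deposited lengths. Deviations are log2(CPM + 0.5) minus the gene's mean. The fit was tested on simulated data, where it recovered the sizes and signs of fold changes and its false calls exceeded the nominal share. DESeq2 1.42.0, limma-voom (limma 3.58.1), other scalings and filters, and leaving out each library were alternatives. p-values measure the spread between these libraries only.

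The 10 genes and all lists were chosen with earlier results of these data known. Named were the 10 genes, every tested relative, a fixed set of pathway genes, of which 1 is not reported here, and the 8 closest patterns. Stat3 and Irf9 values, the shared transcript stretches, the spacing of the motifs and the neighbours of Gbp11 were chosen after values were seen. Promoter sequences are RefSeq's, build GRCm38.p6; the window ran from 250 bases before to 50 after the start.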

Additional observations from a re-analysis of the deposited data

How the results depend on the processing

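Over the other scalings, filters and tools the median log2 fold change of the 10 genes stayed between -0.46 and -0.40 and each gene stayed below 0. The upper end came from leaving out Tgtp1, of which at least 50% of the 100-base transcript stretches occur in another gene, an alternative chosen after seeing the data. It stands in place of one by protein identity, which was not run, since no protein sequences were used here. Leaving out 1 library at a time gave -0.64 to -0.22 for the 10 genes, -0.22 to -0.061 for the pathway genes and -0.64 to -0.25 for the related genes. Other settings gave -0.18 to -0.13 for the pathway genes and -0.41 to -0.36 for the related genes. The number of genes called was 0 to 0 whichever library was left out, also among the pathway and related genes. It was 2 over the whole table with no filter on low counts and 3 with DESeq2, against 0 with edgeR (778 at an unadjusted p under 0.05), and the cause was not tested. The median of all genes stayed between -0.024 and 0.0072. No paired analysis was possible because the groups share no replicate number. Depth left Ifng, Socs1, Cxcl11, Ido1 and Nos2 without a test.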

Other observations

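Gbp11, a relative of the 10 GTPases with little known function, had a pattern of its own and is described here after its values were seen. It had 12.9, 66.5 and 11.4 CPM in the Cre-miR122 libraries, against 10.8, 34.2 and 49.8 CPM in the Cre libraries, a 6.16-fold range. Cre-miR122 replicate 2 was the highest library, joined by Cre replicates 11 and 12, and the log2 fold change was -0.063 (SE 0.68). Gbp10, on the same chromosome, had 2.89, 8.12 and 5.66 CPM with Cre-miR122, against 4.31, 11.04 and 10.2 CPM with Cre. Gbp6 also had Cre-miR122 replicate 1 lowest and replicate 2 highest within that group, but over a 2.25-fold range. The genes with the closest pattern to Gbp11 over the 6 libraries were Slc25a30, a mitochondrial carrier, at a mean absolute difference of 0.146 log2 units, the hepatocyte transcription factor Onecut1 at 0.306, and Cish, a feedback inhibitor of cytokine and growth hormone signalling, at 0.407. Gbp10 was the eighth closest, at 0.568. Slc25a30, Onecut1 and Cish are not on the list of interferon-gamma pathway genes.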
